A study of Mus musculus with 6 samples.

Results

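The EHD ATPases and the caveolins are proteins that bend and hold the cell membrane, and the 9 mouse genes described here were Ehd1, Ehd2, Ehd3 and Ehd4, the caveolins Cav1, Cav2 and Cav3, and the binding partners Pacsin2 and Pacsin3. They were taken by name from the 19938 genes that had a probe set with exactly 1 gene symbol, and each of the 9 had a single such probe set. The family was put together when results of these arrays were known and was in effect selected on the difference of Ehd3, already seen as a large lower value in rAAV-Lmo3 fat, so the Ehd3 values below are a description.

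The arrays measured RNA of epididymal white fat (eWAT), a visceral depot, from male C57BL6/J mice that received a high-fat diet (HFD) for 12 weeks starting at 6 weeks of age. All mice received a recombinant adeno-associated virus (rAAV) of the Rec2 serotype, injected into this fat pad. The vector carried Lmo3, which encodes a LIM-only transcriptional cofactor, in 3 arrays (rAAV-Lmo3) and yellow fluorescent protein in the other 3 (rAAV-YFP), and each array held the pooled RNA of 2 mice. The sample titles call the control vector rAAV-YFP, whereas the labels' treatment text calls it rAAV-LacZ. The vector's promoter, the CMV enhancer with chicken β-actin (CBA), is not specific to adipocytes, and these arrays of whole tissue do not show which cells expressed the delivered gene.

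Caveolae are small flask-shaped pits of the plasma membrane, and adipocytes and endothelial cells are rich in them. Caveolins, with the cavin proteins, form the coat of the pit. EHD proteins are dynamin-like ATPases that assemble in rings on curved membrane: EHD2 sits at the neck of caveolae and holds them at the surface, while EHD1, EHD3 and EHD4 act mainly on endosomes that return receptors to the surface. PACSINs (also called syndapins) are curved F-BAR proteins that bind both EHD proteins and dynamin.

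Values are intensities after robust multi-array averaging (RMA). Differences are rAAV-Lmo3 minus rAAV-YFP on the log2 scale with the standard error (SE) from limma, and p-values were adjusted by Benjamini-Hochberg over the 11963 genes tested; they measure only the spread between these pools. A gene was tested when its mean over the arrays lay above the dimmest 40% of genes, a limit of 114 in intensity. With limma, 0 genes (0% of those tested) passed an adjusted p of 0.05, and no gene came below an adjusted p of 0.669. Without adjustment, 558 genes (4.66%) were under 0.05, of which 271 were higher and 287 lower. The middle of the distribution was narrow, with the 5th and 95th percentiles of all differences at -0.23 and 0.26.

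The delivered gene could not serve as a check of the labels. The Lmo3 probe set gave 24, 26 and 24 in the rAAV-Lmo3 arrays, against 25, 24 and 24 in the rAAV-YFP arrays, far under the limit of 114. The array medians were close, between 123 and 127.5. rAAV-Lmo3 array 1 and rAAV-YFP array 2 stood somewhat apart, correlating on average at 0.986 and 0.988 with the remaining arrays, while the other 4 lay between 0.990 and 0.991. All 9 macrophage markers were lower in both of these arrays than in the mean of the other arrays of their group, against 35.1% of all tested genes. All 5 tested skeletal muscle markers and 7 of the 10 adipocyte markers were higher in both, against 32.8% of all tested genes. Of the adipocyte markers 2 were lower in both. All 10 adipocyte markers were above the limit, with a summed intensity of 69156 to 83625 in rAAV-Lmo3 and 72157 to 83784 in rAAV-YFP arrays, and none of the 5 epididymis markers on the array passed it.

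Of the 9 members, 8 were bright enough to be tested, and 1, Ehd3, was lower at an unadjusted p of 0.05, where 2.4% of all tested genes were lower. No member was higher at that level, where 2.27% of all tested genes were higher, and 0 members passed after adjustment. Ehd3 was also the 1 member whose 2 groups of arrays did not overlap, a separation shown by 10.5% of all tested genes (5.95% lower and 4.53% higher in rAAV-Lmo3 fat). The tested members had a median difference of -0.08, beside 0.00 for all tested genes. Of the 8, 5 (62.5%) lay below 0, beside 49.7% of all tested genes. These counts and the median include Ehd3, on whose difference the family was selected, so they only describe the members. Apart from Ehd3, the tested members lay between -0.23 and 0.19, inside the 5th to 95th percentile of all genes, with Ehd2 at the lower edge.

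**Figure D1:**
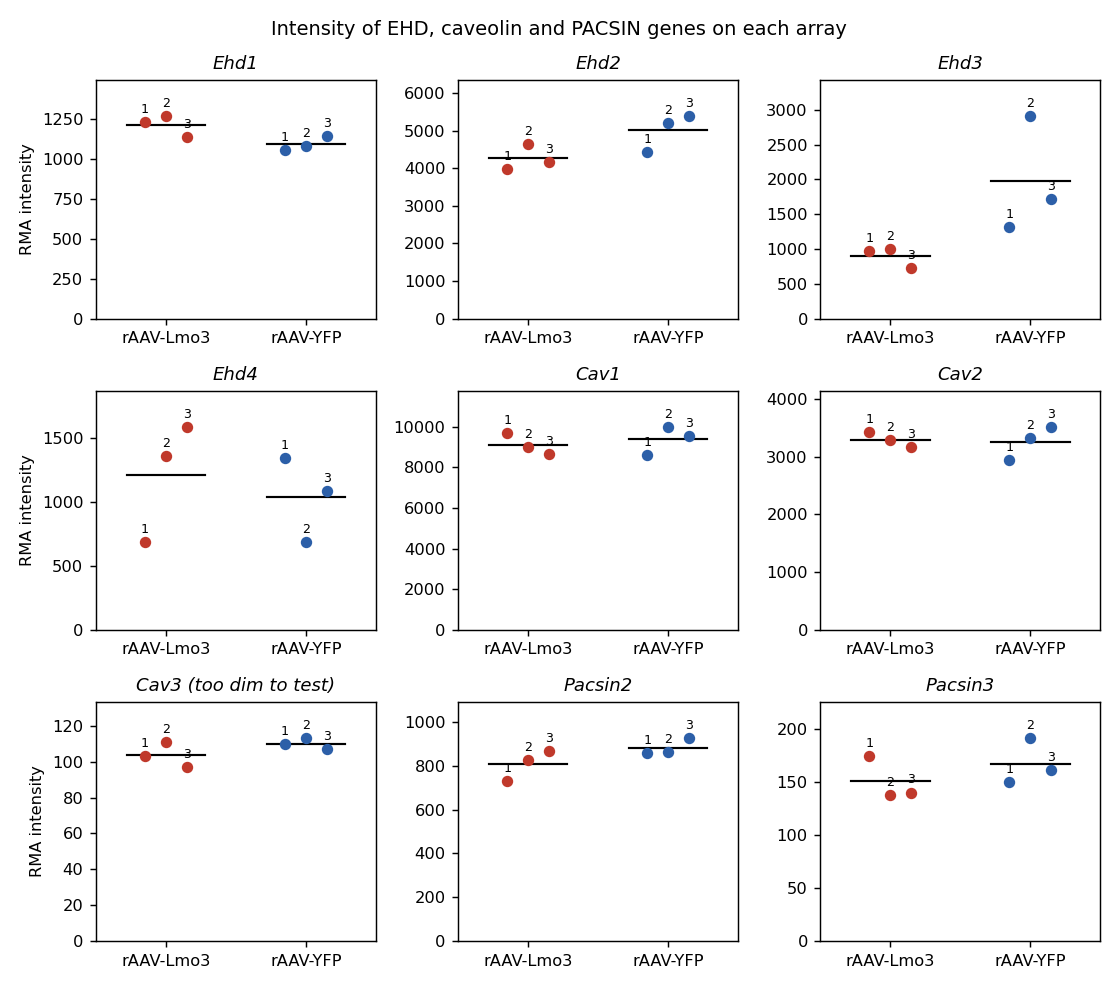
RMA intensity (linear scale) of the 9 genes in each of the 6 arrays, rAAV-Lmo3 left of rAAV-YFP, with a line at each group's mean intensity. The rAAV-Lmo3 points of Ehd3, at 728 to 994, all lie under the lowest rAAV-YFP point at 1309, while the points of the other genes overlap between groups.

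Ehd3 encodes the EHD protein closest in sequence to EHD1 and works with it in endocytic recycling and in transport from early endosomes. It was the member with the greatest difference. The window that RefSeq (GRCm38.p6) places around its start, chr17:73804591-73804890 on the plus strand, is shown with that of Ehd4 further on because these 2 genes varied most between arrays. In it the capitals mark AGGTCA, a hexamer bound by nuclear receptors, and the GC box GGGCGG, on either strand.
Ehd3: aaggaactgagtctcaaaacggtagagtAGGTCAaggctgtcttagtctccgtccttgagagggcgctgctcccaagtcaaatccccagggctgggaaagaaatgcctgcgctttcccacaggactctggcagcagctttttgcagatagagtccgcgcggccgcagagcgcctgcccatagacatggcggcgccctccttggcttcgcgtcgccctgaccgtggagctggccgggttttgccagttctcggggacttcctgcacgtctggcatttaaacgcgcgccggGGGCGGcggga
The AGGTCA match began 222 bases before the annotated start and the GC box 39 bases after it. AGGTCA was present in 16.3% and GGGCGG in 35.7% of all 32851 RefSeq windows of the same 300 bases. The Ehd3 window held no match on either strand to AGAACA, the core of a glucocorticoid receptor site (19% of windows). It also held no E-box, CANNTG (72.3% of windows), and no CCAAT box (37.4% of windows), and its GC content was 61.7%, beside a median of 52.7%. A match is only a run of letters in this window.

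The Ehd3 probe set read 968, 994 and 728 in the rAAV-Lmo3 arrays and 1309, 2907 and 1720 in the rAAV-YFP arrays. Every rAAV-Lmo3 array was under every rAAV-YFP array, and the rAAV-YFP arrays were spread far more widely. The mean log2 values were 9.79 ± 0.25 in rAAV-Lmo3 and 10.87 ± 0.59 in rAAV-YFP fat (SD, n = 3 each). The difference was -1.07 ± 0.29 (SE), or 2.11-fold lower, with an interval at 95% confidence of -1.77 to -0.38 and an adjusted p of 0.970 with limma. As whole tissue was measured, fewer cells of a type and less RNA per cell cannot be told apart. Only Hspb7, which encodes a small heat shock protein of heart and muscle, had a lower difference among the 11963 genes (0.0167% were as low as Ehd3, itself counted), whereas by the size of its p Ehd3 was at rank 73.

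The wide spread of Ehd3 came largely from rAAV-YFP array 2, which was 1.94-fold above the mean of the other rAAV-YFP arrays. The SD within groups was 0.45, larger than that of 95.1% of tested genes. Without that array the difference was -0.76, without rAAV-YFP array 1 it was -1.33, and without both arrays that stood apart it was -0.82. The groups did not overlap, so leaving out arrays could not change the direction. For the same reason the exact two-sided permutation test of the 6 arrays could only give p = 0.1, the smallest that 3 arrays against 3 allow. As the family was selected on this difference, that p adds no evidence.

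**Figure D2:**
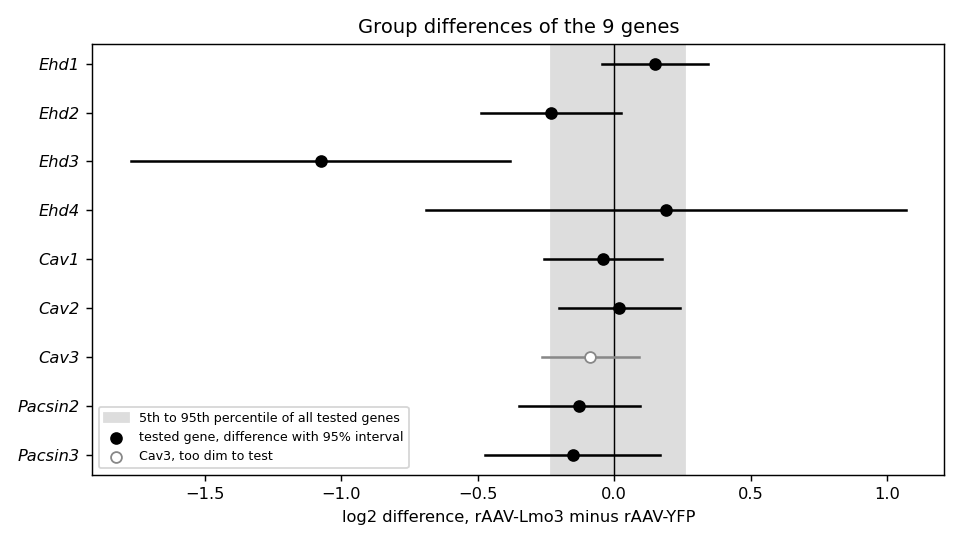
Differences of the members, rAAV-Lmo3 minus rAAV-YFP in log2 intensity, with intervals at 95% confidence from limma, beside the 5th to 95th percentile of all tested genes. Ehd3 at -1.07 lies outside that band and has an interval of -1.77 to -0.38, and the intervals of the other tested members include 0.

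Ehd1, which drives the return of receptors such as the transferrin receptor from the recycling endosome, gave 1235, 1270 and 1139 in rAAV-Lmo3 and 1056, 1082 and 1148 in rAAV-YFP arrays. Its 2 highest values were both from rAAV-Lmo3 fat, and the groups overlapped through the lowest rAAV-Lmo3 and the highest rAAV-YFP array. The difference was 0.15 ± 0.08 (SE; interval -0.05 to 0.34; adjusted p = 0.970, limma). The value of Ehd1 lay on the other side of 0 than that of Ehd3. The log2 of the intensity ratio of Ehd3 to Ehd1 within each array, read only as a difference between groups, was lower by 1.22 in rAAV-Lmo3 fat, with no overlap between the groups. Ehd3 by itself already separated the groups and Ehd1 varied little, so the ratio carries that separation over and adds no further evidence.

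Ehd2, the member at the neck of caveolae, gave 3973, 4650 and 4172 in rAAV-Lmo3 and 4441, 5194 and 5388 in rAAV-YFP arrays. The 2 highest values were from rAAV-YFP fat, and rAAV-Lmo3 array 2 lay above the lowest rAAV-YFP array. The difference was -0.23 ± 0.11 (interval -0.49 to 0.03; adjusted p = 0.970), and 5.14% of tested genes were as low or lower. Without rAAV-YFP array 1 it was -0.31 and passed the unadjusted level (unadjusted p = 0.0270 in limma), with an adjusted p of 0.940. Relative to Ehd2, Ehd3 was lower by 0.84 in rAAV-Lmo3 fat, again with no overlap, a separation that Ehd3 showed by itself.

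Ehd4, which acts on early endosomes and in the uptake of growth factor receptors, varied more between arrays than any other member. Its start window, chr2:120154526-120154825 on the minus strand (GRCm38.p6, RefSeq), held 3 CCAAT matches, shown in capitals as read on either strand, and 2 GC boxes.
Ehd4: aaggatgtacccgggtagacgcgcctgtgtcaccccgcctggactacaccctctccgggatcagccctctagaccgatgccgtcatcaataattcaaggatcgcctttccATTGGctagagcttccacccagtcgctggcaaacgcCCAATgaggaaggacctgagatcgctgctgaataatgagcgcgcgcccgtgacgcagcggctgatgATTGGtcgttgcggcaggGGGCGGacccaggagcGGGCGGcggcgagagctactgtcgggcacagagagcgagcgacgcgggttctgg
The CCAAT matches began 140, 104 and 38 bases before the start and the GC boxes 20 and 4 bases before it. This window had no match to the other 3 motifs, so the windows of Ehd3 and Ehd4 shared only the GC box, and its GC content was 62.7%.

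The Ehd4 probe set read 686, 1363 and 1584 in the rAAV-Lmo3 arrays and 1344, 685 and 1085 in the rAAV-YFP arrays. Both groups spanned nearly the same range. The difference was 0.19 ± 0.37 (interval -0.69 to 1.07; adjusted p = 0.984), where 10.2% of tested genes were as high or higher. The SD within groups, 0.57, was larger than that of 97.5% of tested genes. The 2 low values came from the arrays that stood apart: rAAV-Lmo3 array 1 was 2.14-fold below the other rAAV-Lmo3 arrays and rAAV-YFP array 2 was 1.76-fold below the other rAAV-YFP arrays. Single arrays decided the sign, with 0.56 without rAAV-Lmo3 array 1, -0.05 without rAAV-Lmo3 array 3 and -0.08 without rAAV-YFP array 2, and without both arrays that stood apart it was 0.28. The log2 ratio of Ehd3 to Ehd4 was lower by 1.26 in rAAV-Lmo3 fat, but here the groups overlapped.

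In those same arrays the macrophage markers were low. The mean of the 9 macrophage markers, each centred on its own mean over the arrays, was -0.48, 0.24 and 0.50 in rAAV-Lmo3 and 0.53, -0.78 and -0.01 in rAAV-YFP arrays, and their summed intensity was 15988 to 28329 in rAAV-Lmo3 and 13740 to 30855 in rAAV-YFP arrays. The defining marker Adgre1 gave 1032, 1946 and 2520 in rAAV-Lmo3 and 2268, 718 and 1453 in rAAV-YFP arrays. Ehd4 stood in the same order as the macrophage score in the rAAV-Lmo3 group and in the rAAV-YFP group. The part of macrophage content in the Ehd4 values was not tested.

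Ehd3 did not follow that order, its lowest and highest values being in rAAV-Lmo3 array 3 and rAAV-YFP array 2. The adipocyte score was 0.16, -0.05 and -0.19 in rAAV-Lmo3 and -0.12, 0.16 and 0.04 in rAAV-YFP arrays, and the endothelial score was -0.23, 0.09 and -0.02 in rAAV-Lmo3 and -0.12, 0.19 and 0.10 in rAAV-YFP arrays. The smooth muscle and pericyte score was -0.37, 0.06 and 0.03 in rAAV-Lmo3 and -0.05, 0.17 and 0.16 in rAAV-YFP arrays. Within the rAAV-YFP group Ehd3 stood in the order of these 3 scores and in the reverse order of the macrophage score. Within the rAAV-Lmo3 group it stood in the order of none of them. All 6 tested markers of smooth muscle and pericytes had a difference below 0, as had 49.7% of all tested genes, and 0 of them passed the unadjusted level in limma. Their mean was -0.18. All 7 smooth muscle and pericyte markers, including any too dim to test, had a summed intensity of 4818 to 6890 in rAAV-Lmo3 and 6254 to 7658 in rAAV-YFP arrays. Of the 10 endothelial markers 7 were below 0, 1 of them at the unadjusted level, with a mean of -0.11 and a summed intensity of 10225 to 12855 in rAAV-Lmo3 and 11376 to 14316 in rAAV-YFP arrays, and of the 10 adipocyte markers 6 were below 0, 0 at that level, with a mean of -0.05.

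The macrophage markers went the other way. All 9 were above 0, where 49.7% of all tested genes were below 0, and 0 passed the unadjusted level, with a mean of 0.18. Of the 8 fibroblast and progenitor markers 3 were above and 5 below 0, with a mean of 0.05. The mesothelial and the T, NK and B cell markers lay further below 0 than the lists above. All 5 tested mesothelial markers were below 0 and 0 passed the unadjusted level, with a mean of -0.37. All 6 mesothelial markers, including any too dim to test, had a summed intensity of 798 to 1113 in rAAV-Lmo3 and 839 to 2063 in rAAV-YFP arrays. The score of the tested markers was -0.15, -0.45 and 0.05 in rAAV-Lmo3 and -0.37, 0.01 and 0.91 in rAAV-YFP arrays. The groups overlapped and rAAV-YFP array 3 was the high one. Of 7 T, NK and B cell markers on the array 2 were bright enough to test, neither of them a B cell gene. Both were below 0 and 1 passed the unadjusted level, with a mean of -0.36. All 7 markers, including those too dim to test, had a summed intensity of 646 to 706 in rAAV-Lmo3 and 678 to 1050 in rAAV-YFP arrays. The score of the 2 tested markers was -0.15, -0.20 and -0.19 in rAAV-Lmo3 and 0.12, 0.00 and 0.42 in rAAV-YFP arrays, without overlap. The part of any of these cell types in the Ehd3 difference was not tested.

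**Figure D3:**
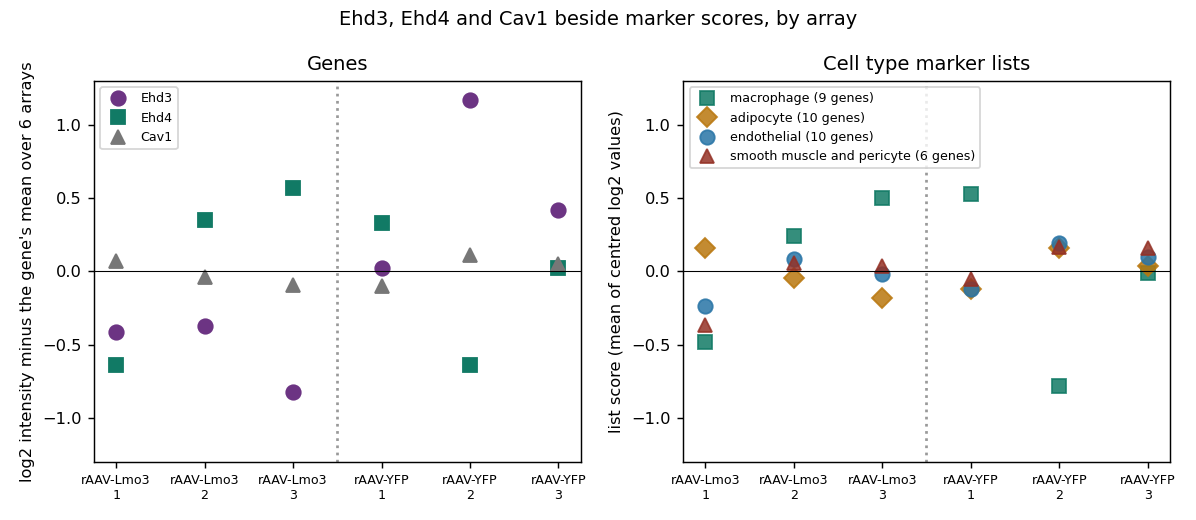
Left, log2 intensity of Ehd3, Ehd4 and Cav1 in each array minus the gene's mean over the 6 arrays. Right, the mean of the same centred values over the macrophage, adipocyte, endothelial, and smooth muscle and pericyte markers: the Ehd4 values and the macrophage score are both low in rAAV-Lmo3 array 1 (macrophage -0.48) and rAAV-YFP array 2 (macrophage -0.78), and Cav1 stays near 0.

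The caveolins of fat lay close to 0. Cav1, whose product builds the caveola coat of adipocytes and endothelial cells, gave 9670, 8976 and 8651 in rAAV-Lmo3 and 8614, 9968 and 9538 in rAAV-YFP arrays. The groups spanned the same range. The difference was -0.04 ± 0.09, and its interval allowed from 16.4% lower to 12.9% higher (adjusted p = 0.984).

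Cav2, which needs CAV1 to reach the cell surface, gave 3434, 3296 and 3164 in rAAV-Lmo3 and 2948, 3324 and 3510 in rAAV-YFP arrays. Here the rAAV-YFP arrays held both the lowest and the highest value. The difference was 0.02 ± 0.09, with an interval of 13.0% lower to 18.1% higher (adjusted p = 0.993). The signs of both Cav1 and Cav2 turned when single arrays were left out, with Cav1 at 0.00397 without rAAV-YFP array 2 and Cav2 at -0.05 without rAAV-YFP array 1.

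Cav3, the caveolin of striated muscle, was dim and was not tested. Its probe set gave 103, 111 and 97 in rAAV-Lmo3 and 110, 113 and 107 in rAAV-YFP arrays, all under the limit of 114. The untested difference was -0.09 ± 0.07. In mean log2 value Cav3 lay just under the limit of 6.83, at 6.74, and Pacsin3, the dimmest tested member, was at 7.30.

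Pacsin2, the widely expressed PACSIN that shapes caveolae, gave 730, 827 and 869 in rAAV-Lmo3 and 858, 863 and 925 in rAAV-YFP arrays. The rAAV-Lmo3 array with the highest value reached into the rAAV-YFP range, and the other 2 were under it. The difference was -0.13 ± 0.09 (interval -0.35 to 0.09; adjusted p = 0.970).

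Pacsin3, a PACSIN known mainly from muscle, gave 174, 138 and 140 in rAAV-Lmo3 and 150, 191 and 161 in rAAV-YFP arrays. Its highest value in each group came from the array of that group that stood apart. On the log2 scale it was 0.32 above the other rAAV-Lmo3 arrays and 0.30 above the other rAAV-YFP arrays. In the same 2 arrays the skeletal muscle markers were high, as were 7 of the 10 adipocyte markers, while 2 of these were low. Within the rAAV-YFP group Pacsin3 stood in the order of the adipocyte score and not of the skeletal muscle score. Within the rAAV-Lmo3 group it stood in the order of neither. The difference was -0.15 ± 0.13 (interval -0.47 to 0.17; adjusted p = 0.971), at -0.26 without rAAV-Lmo3 array 1 and -0.05 without rAAV-YFP array 2. The skeletal muscle score was 0.33, -0.11 and -0.28 in rAAV-Lmo3 and -0.17, 0.47 and -0.24 in rAAV-YFP arrays over the 5 tested markers. Myh4 and Mylpf were too dim to test. With these included, the 7 markers had a summed intensity of 1523 to 2314 in rAAV-Lmo3 and 1549 to 2436 in rAAV-YFP arrays. The part of muscle RNA or of adipocyte content in the Pacsin3 values was not tested.

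The genes that work with these proteins were read from 4 lists holding 41 genes on the array, of which 37 were tested. At an unadjusted p of 0.05, 1 of the 37 was lower (Dnm2) and 0 were higher, and 0 passed after adjustment in limma. Their median difference was -0.01, and 35 of the 37 lay within 0.25 of 0. Their groups did not overlap in 3 genes, all lower, where 5.95% of all tested genes were lower without overlap.

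Of the cavin list, the coat proteins that join caveolins at the membrane, all 3 tested genes were below 0 by values within the spread of the arrays. Cavin1, without which caveolae do not form, gave 3088, 3902 and 3507 in rAAV-Lmo3 and 3686, 3616 and 3996 in rAAV-YFP arrays, a difference of -0.11 ± 0.11. Cavin2, which helps to bend the membrane, gave 2635, 2555 and 2357 in rAAV-Lmo3 and 2447, 2894 and 2752 in rAAV-YFP arrays, a difference of -0.10 ± 0.09. The groups overlapped in both. For Cavin3 the difference was -0.05 ± 0.18, and the muscle cavin Cavin4 and the neuronal Pacsin1 were too dim to test, at 63 to 89 and 83 to 93 in rAAV-Lmo3 arrays and 72 to 85 and 80 to 96 in rAAV-YFP arrays.

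Of the dynamin and membrane scission list, 11 of 12 genes were tested, and 6 were below 0 and 5 above. Dnm2, the ubiquitous dynamin that cuts vesicle necks, gave 1196, 1262 and 1228 in rAAV-Lmo3 and 1404, 1400 and 1368 in rAAV-YFP arrays. These groups were tight and did not overlap. The difference was -0.18 ± 0.07 (unadjusted p = 0.0398, adjusted p = 0.970, limma), and the unadjusted level was missed in several alternatives, among them median centring, a trended prior, and fits without both arrays that stood apart or without rAAV-Lmo3 array 2, rAAV-Lmo3 array 3, rAAV-YFP array 1 or rAAV-YFP array 2. It was missed with the replicate number as a block as well.

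Dnm1, the dynamin best known from neurons, gave 402, 348 and 397 in rAAV-Lmo3 and 487, 453 and 411 in rAAV-YFP arrays, a difference of -0.24 ± 0.10. Wasl, which encodes N-WASP and promotes branched actin at budding vesicles, gave 723, 767 and 738 in rAAV-Lmo3 and 782, 1035 and 783 in rAAV-YFP arrays, a difference of -0.21 ± 0.13. Neither overlapped between groups, and neither passed the unadjusted level. Dnm3 overlapped, at -0.13 ± 0.15, and Bin1, an amphiphysin that senses curvature, was at 0.09 ± 0.08.

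Among the 16 tested EHD partners and recycling endosome genes, 8 were above and 8 below 0, with a range of -0.14 to 0.13 and a median of 0.00. None passed the unadjusted level. Those with the smallest p were Rab11a, the GTPase of the recycling endosome, at 0.13 ± 0.09, Numb, an endocytic adaptor, at -0.11 ± 0.09, Ehbp1l1, an EHD1 binding protein, at 0.09 ± 0.08, and Vps35 of the retromer at 0.10 ± 0.09. All 16 of these genes lay closer to 0 than Ehd3, as nearly every tested gene did, the family having been selected on the Ehd3 difference.

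The 7 genes of proteins found in caveolae and of flotillins, which form other membrane domains, had 4 above and 3 below 0. Aoc3, an amine oxidase abundant at the adipocyte surface, gave 5876, 6122 and 5289 in rAAV-Lmo3 and 6009, 8753 and 6847 in rAAV-YFP arrays, a difference of -0.31 ± 0.15. As with Ehd3, the highest value was in rAAV-YFP array 2, but for Aoc3 the groups overlapped. Nos3, endothelial nitric oxide synthase, gave 459, 458 and 422 in rAAV-Lmo3 and 281, 436 and 428 in rAAV-YFP arrays, a difference of 0.25 ± 0.18 in which rAAV-YFP array 1 was the low one. Flot2 was at -0.15 ± 0.09 and the fatty acid transporter Cd36 at 0.03 ± 0.08.

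**Figure D4:**
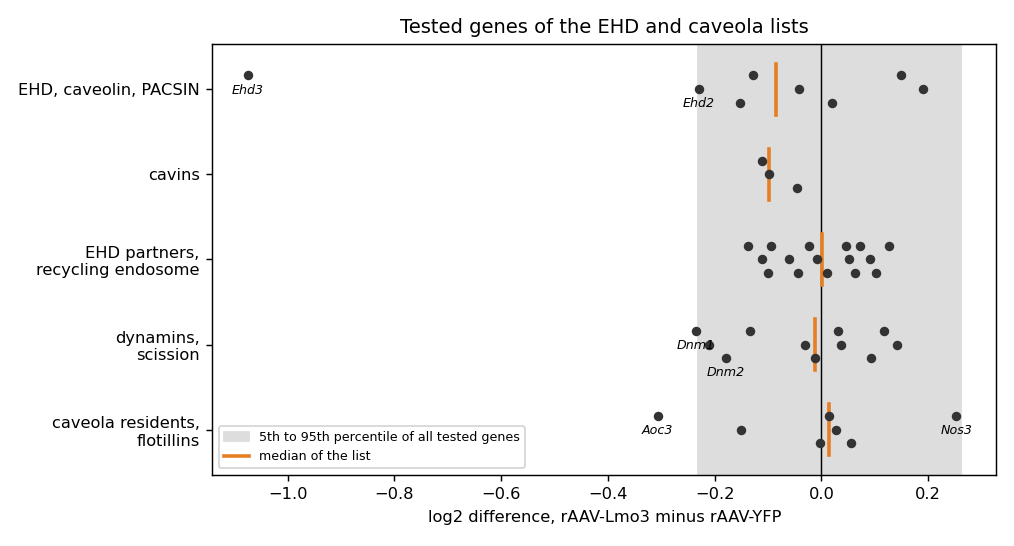
Differences, rAAV-Lmo3 minus rAAV-YFP in log2 intensity, of the tested genes in the 4 lists, with 1 point for each gene. All 37 points of the 4 lists lie between -0.31 (Aoc3) and 0.25 (Nos3). Ehd3, on whose difference the family was selected, is at -1.07.

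The profile of Ehd3 over the 6 arrays was set against those of all other tested genes by the root mean square difference of centred log2 values. As the measure uses the Ehd3 values themselves, genes with a like profile had to be lower on average in rAAV-Lmo3 fat. Placeholder symbols, such as those starting Gm or ending Rik, and immunoglobulin or receptor segments were left out of the genes named. The nearest was Hspb7 (0.248), at 1211, 1430 and 832 in rAAV-Lmo3 and 1890, 2820 and 2814 in rAAV-YFP arrays, with a difference of -1.13 ± 0.24. It had its lowest value in rAAV-Lmo3 array 3, as Ehd3 did.

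Next was the growth factor Fgf2 (0.276), at 360, 294 and 296 in rAAV-Lmo3 and 373, 722 and 420 in rAAV-YFP arrays, with a difference of -0.62 ± 0.25. It shared with Ehd3 the high value in rAAV-YFP array 2. Then came Map3k6, a kinase of the stress-activated cascade (0.320; difference -0.69 ± 0.15), Lin7a, a scaffold protein of cell junctions (0.327; -0.61 ± 0.14), and Papss2, which makes the sulphate donor for sulphation (0.328; -0.56 ± 0.19). Among the 5, Fgf2, Map3k6, Lin7a and Papss2 were highest in rAAV-YFP array 2, and Hspb7 had nearly equal values in rAAV-YFP arrays 2 and 3.

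**Figure D5:**
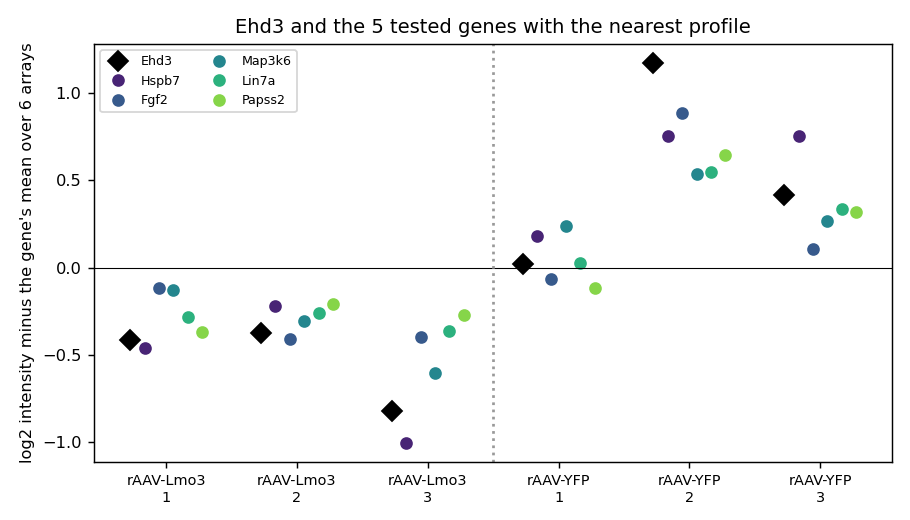
Log2 intensity minus the gene's mean over the 6 arrays for Ehd3 and the 5 tested genes with the nearest profile. In all 6 genes the rAAV-Lmo3 points lie under the rAAV-YFP points. The choice of these genes favours such a separation without requiring it. Ehd3 is the farthest above its mean in rAAV-YFP array 2.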

How the data were processed

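RNA of 6 eWAT pools (3 rAAV-Lmo3, 3 rAAV-YFP, 2 mice each) was hybridised to mouse whole-transcript gene arrays. The deposited values are linear RMA intensities rounded to whole numbers, made by the authors with Affymetrix Expression Console 1.1 per the submitters' processing notes; the genome build is not given in the sources used here. Rounding limits precision at low values, and the number of arrays limits it elsewhere. Of 35556 probe sets, 21789 had 1 gene symbol, 1621 several and 12146 none in the platform annotation. The brightest probe set by mean over the arrays stood for a gene.

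Log2 intensities were fitted with limma 3.58.1 in R 4.3.3 (lmFit, eBayes, group only, two-sided, Benjamini-Hochberg) after leaving out the dimmest 40% of genes (7975). The code was tested on simulated data. The members and lists were chosen with earlier results of these data known. Genes named are the members, all cavins and dynamins, up to 4 genes of each other list with the smallest p, and the 5 profiles nearest Ehd3 (the markers Adgre1, Myh4 and Mylpf were named after their values were seen). Alternatives changed the scaling, the filter, the probe set rule, the test, the pairing and the arrays used. Promoter windows (250 bases before to 50 after the start) were RefSeq GRCm38.p6, matched by symbol for 8 of 9 members, all but Ehd1, in 12 windows.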

Additional observations from a re-analysis of the deposited data

How the results depend on the processing

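With limma and with the methods' t-test, 0 genes passed after adjustment under any setting tried; the t-test had 233 genes higher and 322 lower at an unadjusted p of 0.05. Ehd3 was at -1.33 to -0.76 with single arrays left out, where its sign could not turn because its groups did not overlap. It stayed lower under the other settings as well. Over all settings its adjusted p-values lay between 0.602 (limma with array weights) and 0.9999 (limma without rAAV-Lmo3 array 3). The members' median, Ehd3 included, lay between -0.12 and -0.06 with single arrays left out. At the unadjusted level 1 to 2 members were lower, Ehd3 in each setting and Ehd2 without rAAV-YFP array 1. For the 4 lists, where 1 gene was lower, the count was 0 with each array centred on its median, with a trended robust prior, with the replicate block and without both arrays that stood apart, 2 with array weights and with no filter on dim genes, and 0 to 1 with single arrays left out. Cav2 was -0.0326 after a second quantile normalization, -0.0101 without rAAV-Lmo3 array 1 and -0.0514 without rAAV-YFP array 1 (range to 0.0745), Ehd4 was -0.0479 without rAAV-Lmo3 array 3 and -0.0832 without rAAV-YFP array 2 (range to 0.56), and Cav1 was 0.00397 without rAAV-YFP array 2 (range from -0.10). The cause was not tested.

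Median centring moved the median of all genes to 0.02 and the unadjusted calls to 317 higher and 216 lower, beside 271 higher and 287 lower. These calls fell to 143 higher and 140 lower without rAAV-Lmo3 array 3 and 122 higher and 141 lower without rAAV-YFP array 2, and were 167 higher and 339 lower without rAAV-YFP array 1 and 382 higher and 458 lower of 19938 genes with no filter. Deviations from the group mean correlated at -0.55, -0.40 and 0.26 between same-numbered arrays, and at -0.71 to 0.68 between the others. As the deviations of a group add up to 0, these values cannot show whether same-numbered pools were handled together. With the replicate block, Ehd3 was -1.07 ± 0.24 (adjusted p = 1.00, limma) and 216 genes were higher and 237 lower at the unadjusted level. With 3 pools a group, only differences well above the spread of the arrays could be seen. Cav3 was just under the limit for testing and Lmo3 far under it.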
